A study of Mus musculus with 6 samples.

Results

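The insulin-like growth factor (IGF) genes were followed in the choroid plexus, a vascular fold of the ventricle wall whose epithelium secretes cerebrospinal fluid. The 10 genes were the ligand genes Igf1 and Igf2, the receptor genes Igf1r and Igf2r, and the binding protein genes Igfbp2, Igfbp3, Igfbp4, Igfbp5, Igfbp6 and Igfbp7. They were chosen by name, and every probe set that the platform annotation gave to 1 of these symbols alone was used, 28 probe sets in all. The whole table held 34945 such probe sets for 18193 genes. Whole lateral ventricle choroid plexus was taken from male CD1 mice, an outbred stock, with both plexuses of 1 mouse on each Affymetrix array. The groups were 3 mice at 18 months and 3 mice at 2 months of age. The labels record no treatment or engineered allele in either group. Strain, sex and tissue were the same at both ages, and the labels record neither litter nor batch. Whole tissue holds epithelium together with stroma, vessels and immune cells, and fewer cells of a type cannot be told apart from less RNA per cell.

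Igf1 and Igf2 encode small secreted proteins related to insulin. Both act through the receptor tyrosine kinase encoded by Igf1r, which signals through insulin receptor substrates, PI3K and AKT. The Igf2r product, which is also the cation-independent mannose 6-phosphate receptor, takes IGF2 up for breakdown in lysosomes and carries lysosomal enzymes. The binding proteins hold IGFs in body fluids and can either block or prolong their action. Igf2 is imprinted, and in most mouse tissues after birth it is shut down, while the choroid plexus and the meninges go on making it. IGF2 from the plexus enters the cerebrospinal fluid and reaches neural progenitors that line the ventricles.

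Of the 28 probe sets, 27 passed a filter that asked for a mean log2 intensity over the 6 arrays of at least 4.92, the 40th percentile of all probe sets other than controls. The probe set below the filter was 1446303_at, 1 of 5 for Igf1r. By limma with Benjamini-Hochberg adjustment over all 27022 probe sets tested, an adjusted p under 0.05 was reached by 0 of the 27 in the direction of higher and by 0 in the direction of lower at 18 months. Over all probe sets 0.0% were called higher and 0.0037% lower. At an unadjusted p under 0.05, 0 of the 27 were higher, where 3.66% of all probe sets were, and 2 were lower, where 2.81% were. Both of these belonged to Igf1, and 1434413_at among them passed the filter only through its 2-month values. The lowest adjusted p of the 27 was 0.671. The ordinary 2-sample test with the same adjustment also called 0 of the 27. The median difference of the 27 was 0.02 on the log2 scale, against 0.00 over all probe sets tested, with 14 above 0 and 13 below, where 49.9% of all lay below 0.

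**Figure D1:**
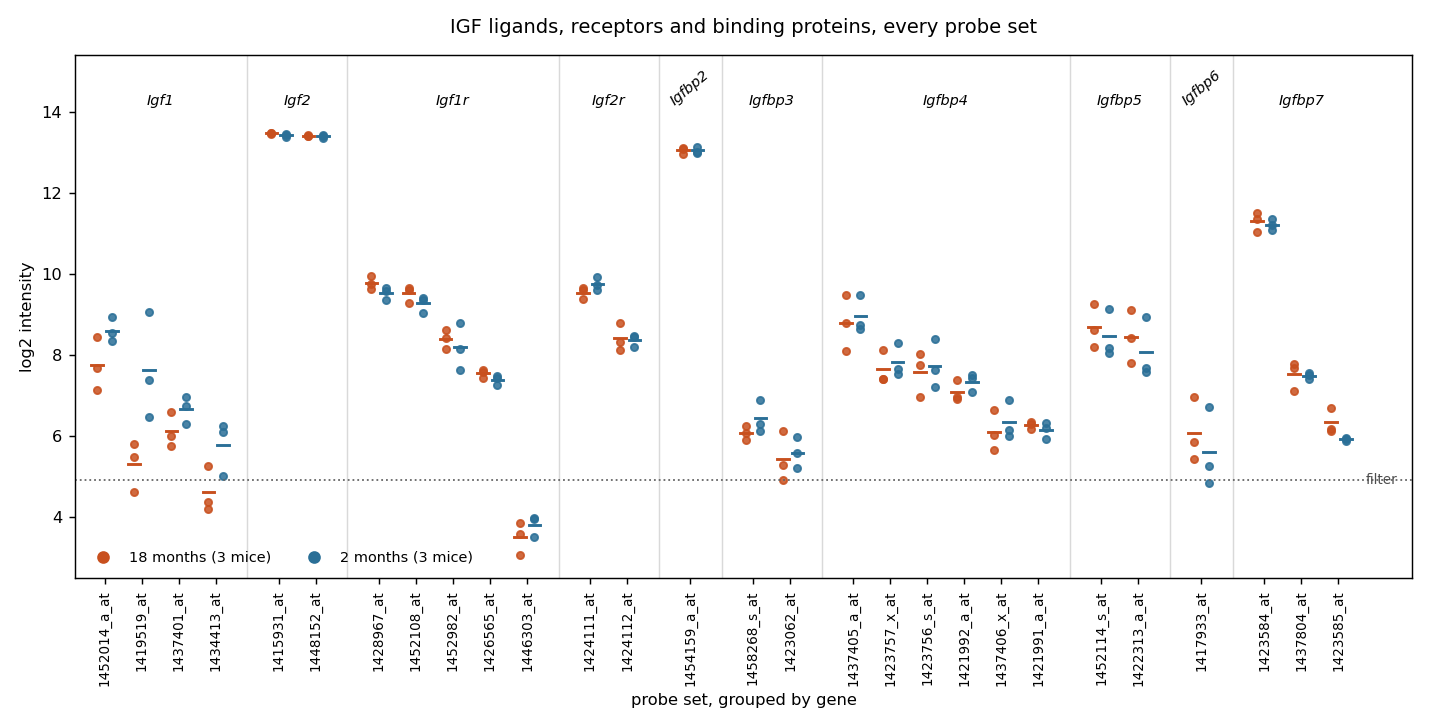
Log2 intensity (vertical axis) of the 28 probe sets of the IGF genes (horizontal axis, grouped by gene). Orange points are the 3 mice at 18 months and blue points the 3 mice at 2 months, with a bar at each group's mean. The dotted line is the filter of 4.92, which applies to the mean over all 6 arrays. All 4 probe sets of Igf1 have a lower mean at 18 months, both probe sets of Igf2 are nearly level, and 1 probe set of Igf1r lies below the filter.

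RefSeq gave promoter windows for all 10 genes (assembly GRCm38.p6, 14 windows). The 250 bases before a start are shown for Igf1, whose probe sets gave the lowest differences, and for Igf2 and Igfbp2, whose probe sets hardly moved. Capitals mark the GC box GGGCGG, read on both strands, a motif of many promoters that lack a TATA box.
Igf1, chr10:87860861-87861110, plus strand: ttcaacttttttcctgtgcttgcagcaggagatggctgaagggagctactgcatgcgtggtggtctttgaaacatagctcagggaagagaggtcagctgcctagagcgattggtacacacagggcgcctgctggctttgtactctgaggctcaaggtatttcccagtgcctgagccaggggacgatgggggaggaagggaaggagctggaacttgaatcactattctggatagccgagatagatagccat
Igf2, chr7:142657497-142657746, minus strand: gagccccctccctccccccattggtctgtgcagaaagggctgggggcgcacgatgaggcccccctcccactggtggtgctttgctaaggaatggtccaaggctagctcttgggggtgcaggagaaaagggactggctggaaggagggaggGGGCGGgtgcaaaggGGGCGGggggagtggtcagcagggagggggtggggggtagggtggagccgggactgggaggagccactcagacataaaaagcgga
Igfbp2, chr1:72824230-72824479, plus strand: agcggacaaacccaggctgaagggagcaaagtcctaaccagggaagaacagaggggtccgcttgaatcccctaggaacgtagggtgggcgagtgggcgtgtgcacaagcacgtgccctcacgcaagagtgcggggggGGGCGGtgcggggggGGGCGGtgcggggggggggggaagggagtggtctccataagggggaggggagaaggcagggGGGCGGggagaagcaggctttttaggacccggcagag
The Igf1 window held 0 GC boxes, this Igf2 window 2 and this Igfbp2 window 3, while 32.7% of all 32851 windows of this length held at least 1. The TATA box TATAAA, read on both strands, was in none of these 3 windows and in 12.4% of all windows. The share of G and C was 52.8% in the Igf1 window, 66.0% in that of Igf2 and 67.2% in that of Igfbp2, with a median of 52.4% over all windows. RefSeq lists 4 windows for Igf2 and 2 for Igfbp2, and the arrays do not tell which start a transcript came from. The Igf2 windows not shown held 1, 0 and 0 GC boxes, with 68.8%, 47.6% and 50.8% G and C. The Igfbp2 window not shown held 0, with 56.4% G and C. Windows of Igfbp3, Igfbp4, Igfbp5 and Igfbp6 held 0 GC boxes as well. RefSeq begins the Igf1 gene at 87858265, so the Igf1 window lies inside the gene, before a downstream start. The bases before the outermost Igf1 start were not searched. The windows of Igfbp3 and Igfbp4 also lie inside their genes. A match of these letters is a description of the window and not of a bound factor.

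Igf1 showed the lowest differences of the 10 genes. Its probe set 1419519_at had log2 intensities of 5.81, 5.48 and 4.63 at 18 months against 9.06, 6.47 and 7.37 at 2 months. All 3 older mice lay under all 3 younger ones, which was so for 5.89% of all probe sets tested, and the highest value came from a single mouse, 2-month replicate 1. The log2 difference was -2.33 (SE 0.67, 95% confidence interval -3.93 to -0.73; limma unadjusted p = 0.0111, adjusted p = 0.671), a level 5.02-fold lower at 18 months. The difference was -1.61 without 2-month replicate 1 and -2.91 without 2-month replicate 2.

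The other 3 probe sets of Igf1 also had lower means at 18 months. The probe set 1434413_at had 5.26, 4.20 and 4.37 at 18 months against 6.24, 5.0 and 6.10 at 2 months, a difference of -1.17 (SE 0.43, limma unadjusted p = 0.0301, adjusted p = 0.728). The values of 18-month replicates 2 and 3 lay under 4.51, the highest of 27 bacterial control probe sets, which gauge background. These 2 mice were not above background there, so the size of that difference is uncertain. The mean of 1434413_at was 4.61 at 18 months, under the filter of 4.92, and 5.78 at 2 months. Its place among the tested probe sets thus rests on the age at which it was high. The brightest, 1452014_a_at, had 7.67, 8.44 and 7.14 at 18 months against 8.34, 8.94 and 8.53 at 2 months, a difference of -0.85 (SE 0.36, limma adjusted p = 0.780). The last, 1437401_at, had 5.76, 6.58 and 5.99 at 18 months against 6.30, 6.95 and 6.75 at 2 months, a difference of -0.55 (SE 0.29, limma adjusted p = 0.819). The ranges of the ages overlapped in these 3. All 4 probe sets read the RNA of the same mice and are no replicates of each other. Averaged into 1 value per gene, with 1434413_at included, they gave -1.22 (SE 0.25, limma unadjusted p = 0.00175, adjusted p = 0.371 over 12681 genes).

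The Igf1 probe sets also differed in how they ordered the mice. In 1452014_a_at and 1437401_at the highest mouse of each age was replicate 2. In 1419519_at and 1434413_at it was replicate 1 at both ages. The genes whose centred values over the 6 arrays lay nearest to those of 1452014_a_at were Prss54, Ccnd2 (a D-type cyclin that drives entry into the cell cycle), Zscan29 and Heg1. Their root mean square differences from it were 0.13, 0.14, 0.17 and 0.18 on the log2 scale, where the Igf1 values themselves had a root mean square of 0.60 about their mean.

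**Figure D2:**
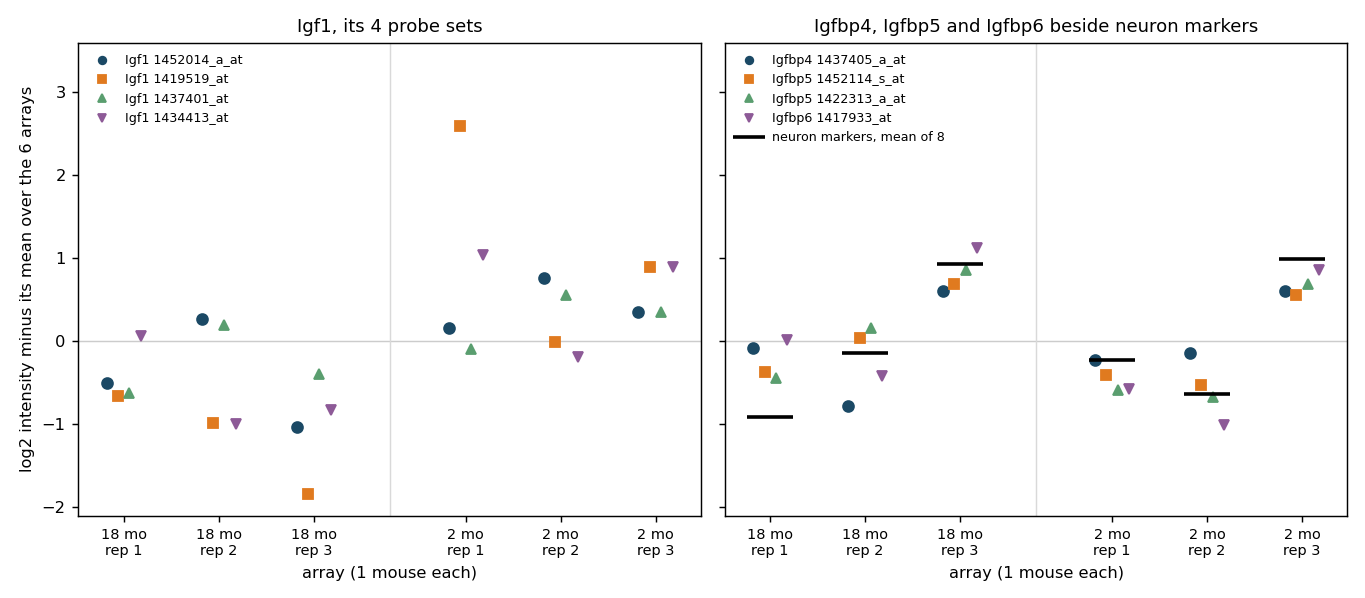
Log2 intensity of each probe set minus its own mean over the 6 arrays (vertical axis) in each mouse (horizontal axis, the 18-month mice left of the 2-month mice). Left, the 4 probe sets of Igf1, of which 1419519_at stands highest in 2-month replicate 1. Right, the brightest Igfbp4 probe set and those of Igfbp5 and Igfbp6, with a black bar at the mean of 8 neuron markers. In the right panel all 4 probe sets and the neuron markers are highest in replicate 3 of each age.

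Genes of stromal, immune and ependymal cells are given beside Igf1. Stromal fibroblast genes had 6 of 9 tested members below 0 (median -0.30). Dcn, which encodes the matrix proteoglycan decorin, had 7.91, 7.89 and 8.59 at 18 months against 8.72, 9.10 and 8.74 at 2 months (difference -0.72, SE 0.26, limma adjusted p = 0.728). The receptor gene Pdgfra of the same list differed by 1.95 (SE 0.23, limma adjusted p = 0.151). At an unadjusted limma p under 0.05, 1 of the 9 was higher and 1 lower, where 3.67% and 2.8% of all genes were. The ages did not overlap in 1 that was higher and 2 that were lower, against 7.06% and 6.25% of all genes. The summed linear level of all 11 stromal genes was 2305 to 2740 at 18 months and 2097 to 2496 at 2 months, and 2 of them lay under the highest bacterial control. Macrophage genes, from cells that can make IGF1, had 6 of 7 tested members above 0 (median 0.81). Their 8 genes summed to 2503 to 3786 at 18 months and 1892 to 3122 at 2 months, with 1 under the highest bacterial control. At an unadjusted limma p under 0.05, 2 of the 7 were higher, where 3.67% of all genes were, and 0 at an adjusted one. The ages did not overlap in 2 that were higher, where this was so for 7.06% of all genes. Ependymal genes, from the ciliated lining of the ventricle wall, had 0 of 7 tested members above 0 (median -0.68), none under the highest bacterial control. By limma 2 of them were lower at an unadjusted p under 0.05, where 2.8% of all genes were, and 0 at an adjusted one. The ages did not overlap in 3 that were lower, where this was so for 6.25% of all genes. Mlf1 differed by -0.82 (SE 0.20) and Dnah6 by -0.68 (SE 0.26). Their summed linear level was 3219 to 4647 at 18 months and 4452 to 6254 at 2 months. The part of these lists in the Igf1 values was not tested.

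The intensity of Igf2 was level between the ages. Whether so bright a signal still follows the amount of RNA was not tested, here or for Igfbp2. Probe set 1415931_at had log2 intensities of 13.48, 13.47 and 13.46 at 18 months against 13.41, 13.37 and 13.46 at 2 months. Its 6 arrays spanned 0.11, and the ages overlapped. The difference was 0.06 (SE 0.16, 95% confidence interval -0.32 to 0.44; limma adjusted p = 0.969), so that the interval ran from 0.798-fold to 1.35-fold. The second probe set, 1448152_at, had 13.40, 13.43 and 13.40 at 18 months against 13.42, 13.39 and 13.36 at 2 months. It gave 0.02 (SE 0.16, interval -0.36 to 0.40, limma adjusted p = 0.990). The SE of both is wider than their own spread between mice, because limma moves each spread toward that of other probe sets. The values of 1415931_at had a root mean square of only 0.04 about their mean. The genes nearest to the Igf2 pattern were Dbi, Rpl13a, Etfa and Rps20, at root mean square differences of 0.01 to 0.02. Their 6 arrays spanned 0.10, 0.13, 0.15 and 0.11, against 0.11 for 1415931_at.

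The 4 Igf1r probe sets above the filter all had a higher mean at 18 months, by 0.16 to 0.26, and none passed. The brightest, 1428967_at, had 9.63, 9.75 and 9.95 at 18 months against 9.64, 9.57 and 9.35 at 2 months (difference 0.26, SE 0.19, 95% confidence interval -0.19 to 0.70, limma adjusted p = 0.860). The groups overlapped through 18-month replicate 1 and 2-month replicate 1. Probe set 1452108_at differed by 0.24 (SE 0.20), 1452982_at by 0.20 (SE 0.32) and 1426565_at by 0.16 (SE 0.17). The probe set below the filter, 1446303_at, had 3.58, 3.07 and 3.85 at 18 months against 3.52, 3.97 and 3.96 at 2 months, all under the highest bacterial control. For Igf2r, 1424111_at had 9.59, 9.37 and 9.64 at 18 months against 9.92, 9.73 and 9.59 at 2 months (difference -0.21, SE 0.19, limma adjusted p = 0.886). Its second probe set, 1424112_at, differed by 0.05 (SE 0.23). A further probe set carries both Igf2r and Airn, the noncoding RNA that overlaps Igf2r and silences it on the paternal chromosome, and was left out.

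Igfbp2, the binding protein that the plexus epithelium itself secretes into cerebrospinal fluid, was level. Its only probe set, 1454159_a_at, had 13.10, 13.07 and 12.96 at 18 months against 12.98, 13.14 and 13.01 at 2 months. The group means were 13.04 ± 0.07 at 18 months and 13.04 ± 0.08 at 2 months (SD, n = 3 each), and the difference of 0.00 (SE 0.17) had a 95% confidence interval of -0.40 to 0.40. The nearest patterns were those of Islr2, Recql, Wnt3a and Tmem171, at 0.03 to 0.04. The Igfbp2 values themselves had a root mean square of only 0.06 about their mean. Igfbp7, a binding protein of low affinity for IGFs that is found in vessel walls, had 11.35, 11.50 and 11.04 at 18 months against 11.07, 11.21 and 11.35 at 2 months in its brightest probe set, 1423584_at (difference 0.09, SE 0.20). Probe set 1423585_at had 6.70, 6.13 and 6.18 at 18 months against 5.91, 5.94 and 5.88 at 2 months. All 3 older mice lay above all 3 younger ones, as in 6.67% of all probe sets, with a difference of 0.42 (SE 0.21, 95% confidence interval -0.09 to 0.93, limma adjusted p = 0.810). Without 18-month replicate 1 it was 0.24. The 2 brighter probe sets of Igfbp7 did not share that separation, 1437804_at differing by 0.03 (SE 0.23). Endothelial genes beside it had 3 of 6 tested members above 0 (median 0.01) and summed to 572.4 to 770.9 at 18 months and 607.2 to 850.1 at 2 months (8 genes, 1 under the highest bacterial control). Igfbp3, whose product is the main IGF carrier of blood serum, differed by -0.37 (SE 0.25) in 1458268_s_at and by -0.15 (SE 0.36) in 1423062_at, with overlapping ages in both.

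Igfbp4, Igfbp5 and Igfbp6 varied more between mice of 1 age than between the ages. Igfbp6, whose product prefers IGF2 over IGF1, had 5.86, 5.42 and 6.96 at 18 months against 5.27, 4.83 and 6.70 at 2 months (1417933_at; difference 0.48, SE 0.59, 95% confidence interval -0.92 to 1.88, limma adjusted p = 0.927). Its difference was 0.0376 without 18-month replicate 3, 0.0959 without 2-month replicate 2 and 1.03 without 2-month replicate 3. Igfbp5, whose product also binds extracellular matrix, had 8.20, 8.62 and 9.26 at 18 months against 8.17, 8.05 and 9.14 at 2 months (1452114_s_at; difference 0.24, SE 0.39). Its second probe set, 1422313_a_at, differed by 0.38 (SE 0.48), and by 0.0454 without 18-month replicate 3 and 0.82 without 2-month replicate 3. Igfbp4, an inhibitory binding protein that the protease encoded by Pappa cleaves, had 8.78, 8.09 and 9.48 at 18 months against 8.65, 8.72 and 9.48 at 2 months in its brightest probe set, 1437405_a_at (difference -0.16, SE 0.40). Its 6 probe sets ranged from -0.26 to 0.11, with 5 below 0. The names of 3 of them carry an s or x, which marks probe sets that may also read other transcripts. So do those of 1458268_s_at (Igfbp3), 1452114_s_at (Igfbp5) and the brightest probe sets of some pathway genes, among them Gh and Ins2.

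Replicate 3 held the highest value at both ages in 1 of 1 probe sets of Igfbp6, 2 of 2 of Igfbp5 and 4 of 6 of Igfbp4. This was so for 8 of the 27 probe sets of the IGF genes and for 11.4% of all probe sets tested, and the pattern was noticed after the values were seen. Summed levels of brain tissue markers were also highest in replicate 3 of each age, though not every marker was. At 18 months the neuron marker Nefm had 5.05, 6.22 and 5.97, and the astrocyte marker Aldh1l1 8.41, 8.57 and 8.14. The 8 neuron markers, none under the highest bacterial control, summed in linear level to 1951, 4199 and 6999 at 18 months and 3099, 1857 and 6867 at 2 months. Astrocyte markers summed to 1093, 1486 and 2539 at 18 months and 1507, 803.6 and 2175 at 2 months (6 genes). Oligodendrocyte markers summed to 2458, 4703 and 6527 at 18 months and 4615, 1758 and 6898 at 2 months (6 of 7 listed genes). Meningeal barrier markers had mean log2 intensities of 6.78, 6.27 and 7.41 at 18 months and 6.64, 6.43 and 6.93 at 2 months (8 genes), again highest in replicate 3, while their summed linear level was 13520, 13820 and 14160 at 18 months and 12670, 13650 and 12180 at 2 months. Ependymal genes too had their highest mean log2 intensity in replicate 3, at 8.37 at 18 months and 9.18 at 2 months. Their summed linear level was lowest there at 18 months, at 3219. Without replicate 3 of both ages, a choice made after seeing the data, Igfbp6 differed by 0.59 (SE 0.30, limma adjusted p = 0.908) and 1422313_a_at of Igfbp5 by 0.49 (SE 0.30, limma adjusted p = 0.914). With the mean of the neuron markers as a covariate these were 0.55 (SE 0.34) and 0.45 (SE 0.19, limma adjusted p = 0.686). The part of brain, meningeal or ependymal tissue in the binding protein values was otherwise not tested.

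**Figure D3:**
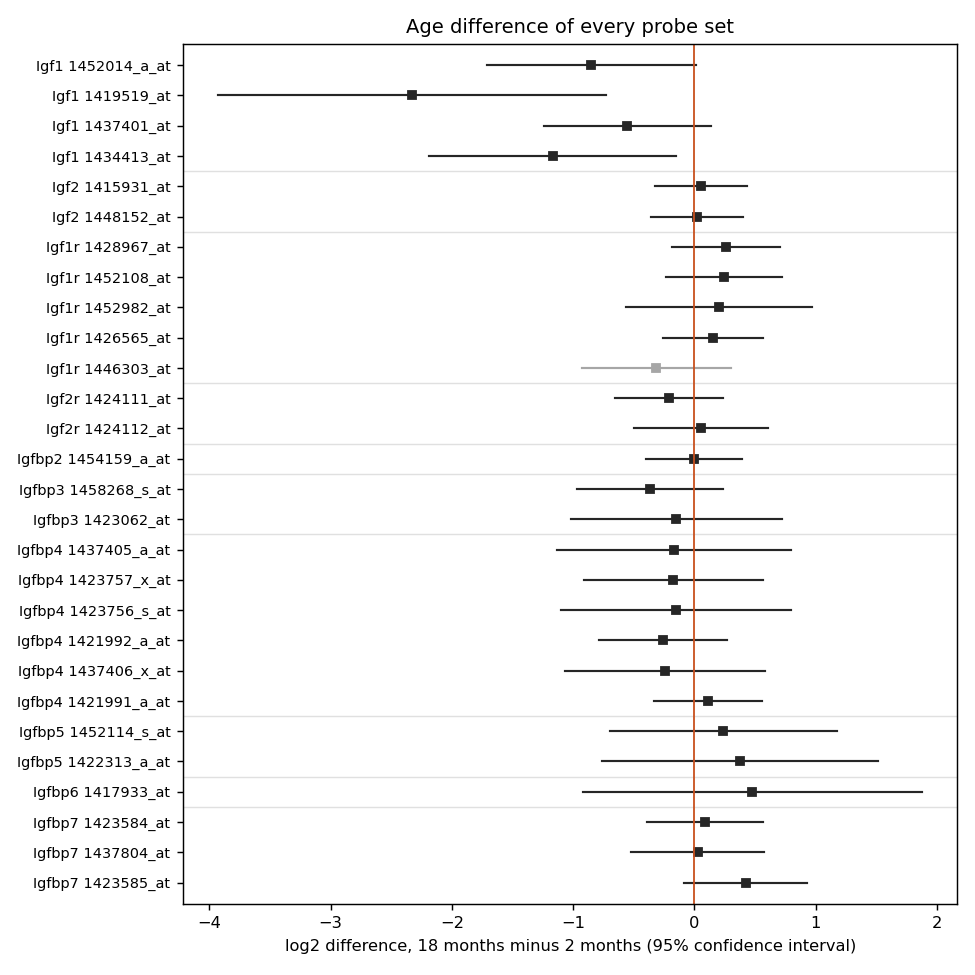
Log2 difference, 18 months minus 2 months (horizontal axis), for the 28 probe sets (vertical axis). Squares are limma estimates and lines their 95% confidence intervals, and the grey probe set lay below the filter and comes from the fit without one. Intervals of 2 of the 4 Igf1 probe sets lie wholly below 0, and those of all other probe sets include 0.

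The plexus itself was measured at both ages. Of 12 listed genes of the plexus epithelium, 11 had a probe set. Their summed linear level was 74070 to 74380 at 18 months and 76760 to 80020 at 2 months, without overlap. Of the 11, 8 lay below 0 (median -0.07). The ages did not overlap in 1 that was higher and 3 that were lower, against 7.06% and 6.25% of all genes. At an unadjusted limma p under 0.05, 1 was higher and 0 lower, where 3.67% and 2.8% of all genes were. Whether such bright signals follow the amount of RNA was not tested. Array medians lay between 5.56 and 5.65 in log2 intensity, and correlations between arrays over the probe sets tested between 0.914 and 0.945.

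Genes that act around the IGFs were described from 7 lists of 77 symbols in all. Probe sets with a single symbol covered 71 of these, and 57 passed the filter. By limma an adjusted p under 0.05 was reached by 0 of the 57 in either direction, as by 0.0% of all 12681 genes read by their brightest probe set. At an unadjusted p under 0.05, 1 was higher and 0 lower, where 3.67% and 2.8% of all genes were, and the ordinary 2-sample test called 0. The median difference was 0.14, with 35 above 0 and 22 below, where 49.6% of all genes lay below 0. The ages did not overlap in 6 that were higher and 3 that were lower at 18 months, as in 7.06% and 6.25% of all genes.

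Among modifiers of the binding proteins, the protease gene Pappa, its relative Pappa2 and the gene of their inhibitor Stc1 lay under the filter, at mean log2 intensities of 2.88, 2.40 and 3.32 at 18 months against 3.03, 2.39 and 3.42 at 2 months. Stc2, which encodes a second inhibitor of PAPP-A, differed by -0.26 (SE 0.17, limma adjusted p = 0.847). The serine protease gene Htra1 differed by 0.16 (SE 0.28) in its brightest probe set and by -0.13 (SE 0.45) in its next. The lysosomal protease gene Ctsd differed by 0.13 (SE 0.16), and the metalloprotease genes Adam9 and Adam28 by 0.21 (SE 0.26) and 0.19 (SE 0.21). Of other genes with an IGFBP domain, the matricellular gene Ccn1 differed by 0.98 (SE 0.42, limma adjusted p = 0.780), Ccn2 by -0.44 (SE 0.65), Ccn3 by 0.42 (SE 0.64) and Kazald1 by 0.19 (SE 0.52). Igfbpl1 lay under the filter at 4.59 at 18 months and 4.07 at 2 months. Ins2, which encodes insulin, had 9.86, 9.90 and 9.43 at 18 months against 9.80, 10.33 and 9.98 at 2 months, a difference of -0.30 (SE 0.23, limma adjusted p = 0.868) with overlapping ages. Igf2bp3, which encodes a protein that binds IGF2 mRNA, differed by -0.40 (SE 0.33) in its brightest and by 0.61 (SE 0.61) in its next probe set. H19, the neighbour of Igf2 in the imprinted domain, and Igf2bp2 were not analysed here.

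In the mannose 6-phosphate route that Igf2r serves, the adaptor gene Gga2 differed by -1.03 (SE 0.58), with a 2-month mean of 10.01 ± 1.23 (SD, n = 3) that rested on replicate 3 at 11.43. Gnptab and Gnptg, whose products add the mannose 6-phosphate tag, differed by 0.34 (SE 0.23) and -0.47 (SE 0.37), and the second receptor gene M6pr by 0.25 (SE 0.17). Downstream of the receptors, the insulin receptor gene Insr differed by 0.31 (SE 0.25), the substrate genes Irs1 and Irs2 by 0.25 (SE 0.24) and -0.04 (SE 0.21), and the adaptor genes Grb2 and Gab1 by 0.31 (SE 0.20) and 0.29 (SE 0.19). Grb14, which encodes an inhibitor of the insulin receptor, differed by -0.95 (SE 0.59), with 1 high value of 11.03 in 2-month replicate 2. The kinase gene Akt1 differed by -0.45 (SE 0.24), Tsc2, which restrains mTOR, by 0.47 (SE 0.26), the AKT activator gene Pdpk1 by 0.40 (SE 0.23) and the PI3K subunit gene Pik3r2 by 0.30 (SE 0.18). Other probe sets that passed the filter gave -0.32 (SE 0.49) and 0.15 (SE 0.19) for Akt1 and -0.02 (SE 0.20) and 0.25 (SE 0.24) for Insr. Adjusted p lay between 0.819 and 0.987 for the brightest probe sets of the genes of this paragraph by limma.

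**Figure D4:**
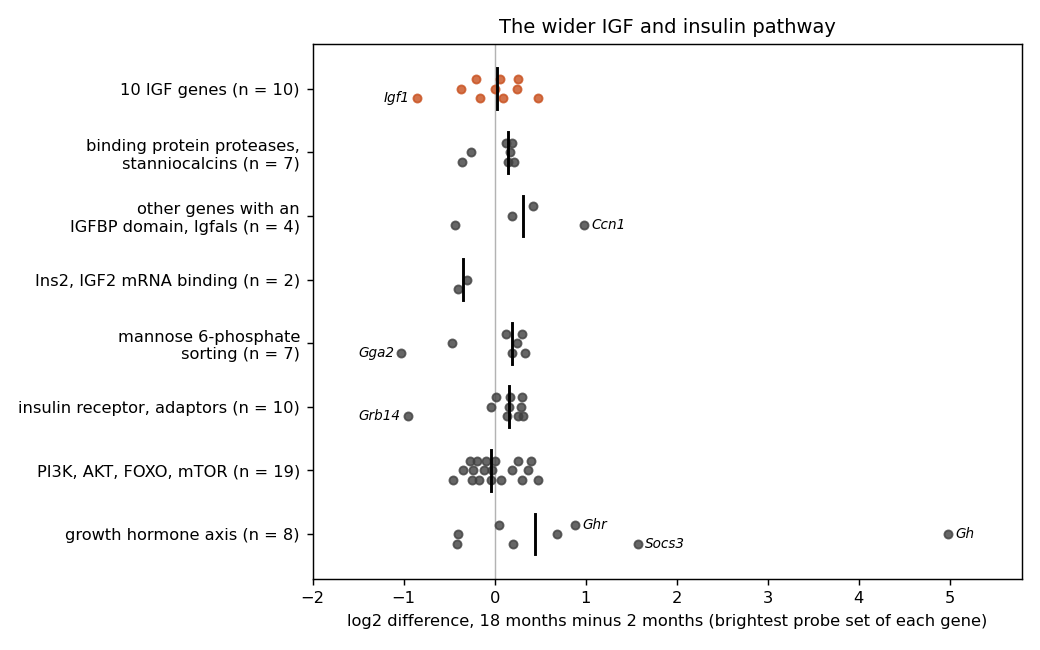
Log2 difference, 18 months minus 2 months (horizontal axis), of the brightest probe set of each gene that passed the filter, for the 10 IGF genes (top row) and 7 lists of pathway genes (rows below). Points are genes, black bars list medians, and genes beyond 0.8 in either direction are named. Gh at 4.98 stands far from all others, and Igf1 at -0.85 is the lowest of the 10 IGF genes.

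Growth hormone raises Igf1 transcription in liver and other tissues through its receptor and STAT5. Gh, the pituitary hormone gene, had 10.40, 10.18 and 9.08 at 18 months against 4.65, 5.63 and 4.44 at 2 months, a difference of 4.98 (SE 0.45, limma adjusted p = 0.0738). Its adjusted p passed under 0.05 with a filter at the 60th percentile and with the neuron covariate. The 2-month mean of Gh, 4.91, lay under the main filter of 4.92, so Gh passed it through the 18-month mice. Of the 5 other measured genes of the pituitary list, Prl had 6.42, 7.40 and 5.06 at 18 months against 2.90, 3.06 and 3.03 at 2 months, with no overlap. Cga had 5.65, 6.29 and 4.40 at 18 months against 3.37, 3.02 and 3.15 at 2 months, also without overlap. Pomc had 8.34, 8.05 and 6.78 at 18 months against 6.71, 6.19 and 6.25 at 2 months, again without overlap. Tshb overlapped between the ages, at 4.08, 5.02 and 3.56 at 18 months against 3.65, 3.87 and 3.81 at 2 months. Prl, Cga and Tshb lay under the filter. Of the 3 tested genes of the list, Gh included, 2 were higher without overlap, where this was so for 7.06% of all genes. Lhb differed by -0.04 (SE 0.28). The 5 genes without Gh summed in linear level to 683.6, 677.8 and 322.2 at 18 months and 272.4, 327.0 and 249.6 at 2 months. On this sum 18-month replicate 3 lay under 2-month replicate 2. The brightest of the 5 in that 2-month mouse was Lhb, at 7.80 against 7.19 in 18-month replicate 3. In Prl, Pomc and Cga 18-month replicate 3 lay above all 2-month mice, and in Tshb under all of them. Of the whole list, 2 genes lay under the highest bacterial control. Whether these transcripts were made in the plexus was not tested. The receptor gene Ghr differed by 0.88 (SE 0.46) in its brightest probe set, by 0.62 (SE 0.33) in the next, where the ages did not overlap, and by -0.21 (SE 0.70) in its dimmest. Stat5a differed by -0.42 (SE 0.18) and Socs2, a target of STAT5, by -0.41 (SE 0.24). Stat5b gave 0.69 (SE 0.30) in one probe set and -0.41 (SE 0.20) in the other, so that no direction can be given for it. Adjusted p lay between 0.780 and 0.833 for the brightest probe sets of Ghr, Stat5a, Stat5b and Socs2 by limma.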

How the data were processed

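RNA of 6 whole lateral ventricle plexus samples, 1 mouse each, was extracted, amplified to cDNA with a Nugen kit, labelled with biotin and hybridised to Affymetrix arrays, per the labels' protocols. The authors deposited 1 table of linear intensity values for 45101 probe sets, made with RMA per the submitters' processing notes, with no version given in the sources used here. The values ran from 2.47 to 26820.7, and their log2 was taken. Amplification and probe binding make values comparable between arrays for 1 probe set, not between probe sets, and the number of arrays limits the precision. No genome build was named with the values.

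Gene symbols came from the platform's annotation. Of 45037 probe sets other than controls, 34945 had 1 symbol, 932 several and 9160 none. Symbols were checked by gene identifier against RefSeq (GRCm38.p6), and 0 changed. The test of age was that of limma (version 3.58.1, R version 4.3.3), two-sided, without covariates and with 6.66 degrees of freedom, fitted on probe sets whose mean log2 value reached the 40th percentile and adjusted by Benjamini-Hochberg over all of them. SE and 95% intervals come from that fit, and SD are over 3 mice. The fit was tested on simulated data, in 10 runs with 200 changed probe sets each and spreads taken from limma. A log2 change of 1 was called in 5.82%, a change of 2 in 72.5% and a change of 3 in 94.4%. Of the calls, 5.62% were false. A difference of about 1 would thus mostly go uncalled with these 6 arrays.

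The members, the gene lists and the rule for naming genes were chosen with earlier results of these data known. The rule named every probe set of the members, the 4 genes of each pathway list with the smallest p, a fixed set of pathway genes, and for Igf1, Igf2 and Igfbp2 the 4 genes with the nearest centred values. Pathway and marker genes were represented by their brightest probe set. The main test did not pair the arrays by the numbers of the labels. Deviations of same-numbered arrays from their group means correlated at -0.03, -0.0047 and 0.14. Those of differently numbered arrays correlated at -0.13 to 0.13. Correlations over all probe sets tested cannot exclude a pairing that moved some of them. Alternatives were 2 other filters, quantile normalization, median centring, each mouse left out, 2 pairs of mice left out, the replicate block, array weights, a neuron covariate, an ordinary 2-sample test and 2 gene-level summaries. No 2 arrays held identical values.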

Additional observations from a re-analysis of the deposited data

How the results depend on the processing

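No probe set of the 10 IGF genes passed an adjusted p of 0.05 under any alternative run, the lowest being 0.568. All 4 Igf1 probe sets stayed below 0 in each alternative that tested them (1434413_at lay under the 60th percentile filter), ranging from -2.91 to -1.61 (1419519_at), -1.56 to -0.89 (1434413_at), -1.20 to -0.38 (1452014_a_at) and -0.79 to -0.35 (1437401_at). The other filters, the replicate block and the ordinary test cannot change a difference, so the sign could not turn under them. Signs turned for 13 of the 27 probe sets, and the cause was not tested. With 1 mouse left out at a time, the ranges that crossed 0 were -0.0751 to 0.50 (Igf1r 1452982_at), -0.14 to 0.20 (Igf2r 1424112_at), -0.0304 to 0.0464 (Igfbp2), -0.49 to 0.12 (Igfbp3 1423062_at), -0.51 to 0.18 (Igfbp4 1437405_a_at), -0.41 to 0.0651 (1423757_x_at), -0.42 to 0.17 (1423756_s_at), -0.51 to 0.0267 (1437406_x_at), -0.0432 to 0.58 (Igfbp5 1452114_s_at), -0.014 to 0.21 (Igfbp7 1423584_at) and -0.0953 to 0.24 (Igfbp7 1437804_at). Without 18-month replicate 3 and 2-month replicate 2 together, Igfbp2 gave 0.0876, Igfbp5 -0.24 and -0.20 and Igfbp6 -0.35. Igfbp2 gave 0.0169 with array weights, 0.0128 with quantile normalization and 0.0245 without replicate 3 of both ages, a choice made after seeing the data, which turned Igfbp4 1423756_s_at to 0.0897. Of all probe sets, 0 were called higher and 1 lower. The 60th percentile filter gave 4 higher and 2 lower and the neuron covariate 4 higher, and each called 1 pathway gene higher, Gh. Of all probe sets 0 were lower with the ordinary test, with either pair of mice left out, or without any 1 mouse (0 to 0). With the replicate block 0 were lower. By design the block leaves every difference as it was and moves only the SE and p (1419519_at gave -2.33, SE 0.49, limma adjusted p = 0.739). No other call changed. With 3 mice at each age, 1 array can decide a small difference.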
